A study of Saccharomyces cerevisiae with 24 samples.

Results

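The 68 nuclear genes described here encode proteins of the yeast mitochondrial ribosome, 40 of the large subunit and 28 of the small. They were selected by gene name among 5656 genes represented on the arrays by probe sets for 1 gene: names beginning with MRPL or MRPS, RSM followed by a number, and MRP1, MRP2, MRP4, MRP7, MRP10, MRP13, MRP17, MRP20, MRP21, MRP49, MRP51, RML2, IMG1 and IMG2. Where a gene had several probe sets the one with the highest mean signal was kept. The mRNA levels were measured in 11 Saccharomyces cerevisiae strains that each lack 1 gene of the cytosolic ribosome, the paralog pairs rpl7a and rpl7b, rpl12a and rpl12b, rpl22a and rpl22b, and rpl14a alone, of the large cytosolic subunit, and the pairs rps0a and rps0b, rps18a and rps18b of the small, and in the isogenic wild type (WT), the haploid laboratory strain BY4741. Each strain was grown as 2 biological replicates in rich medium (YPD) at 30 °C to early log phase, in 50 mL cultures, and each RNA was hybridised to 1 Affymetrix array, giving 24 arrays. The deletions were made in duplicated genes to compare the effects of losing one paralog or the other, and nothing in the sample descriptions shows whether a deletion strain was more than 1 clone.

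The mitochondrial ribosome translates the few messages of the mitochondrial genome, which encode core subunits of the respiratory chain and of the ATP synthase. Nearly all of its proteins are encoded in the nucleus, made by cytosolic ribosomes and imported, so its genes are separate from those of the cytosolic ribosome that were deleted here. Many of its proteins descend from bacterial ribosomal proteins and others were added in mitochondria. Of the 68 genes, 41 were assigned a counterpart in bacterial ribosomes here and 27 were assigned none. In yeast the genes of both classes are known to be repressed by glucose and to rise together in respiratory growth.

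The labels were checked first. RPL12A, RPL12B, RPS18A and RPS18B share their probe sets with their paralog and could not be checked. The other 7 deleted genes all fell in the strain named for them, with log2 differences from WT between -9.68 and -5.29. Transcripts of the a mating type (MFA1, MFA2, STE2 and BAR1) had signals of at least 126 as deposited in all 24 arrays. Those of the alpha type were also above background in most arrays (MF(ALPHA)1 in 23, MF(ALPHA)2 in 24, STE3 in 17), but at signals of at most 49.1. Of the genes that BY4741 carries as auxotrophic markers, URA3 was above background in 0 arrays, MET17 in 6, LEU2 in 22 and HIS3 in 24. The background of an array was set at the 95th percentile of 19 controls whose targets yeast lacks. It lay between 5.55 and 30.8 signal units, and the highest was that of rps0a replicate 2.

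All values below are array signals in arbitrary units after quantile normalization, and differences are in log2 units with the standard error of the limma fit. Signals average a whole culture, in which fewer cells with a transcript and less transcript per cell cannot be told apart. A gene was called changed at a Benjamini-Hochberg adjusted p under 0.05 over all 9275 probe sets. With 2 arrays per strain the precision is limited by their number. Signals of different genes come from different probes and were not compared with each other.

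Most mitochondrial ribosomal protein mRNAs were above background throughout, but for dim members passing it is weak evidence of a transcript. The alpha-type MF(ALPHA)2 passed in 24 arrays and LEU2 in 22, at median deposited signals of 19.5 and 23.7. Of the 68 members, 60 were above background in all 24 arrays, and 67 in at least 1 array of all 12 strains. The exception was MRPS5, the counterpart of bacterial S5, which passed background in 13 arrays of 8 strains, so its differences are poorly measured. The others that missed background in some arrays were RSM22 (above it in 17 arrays), RSM23 and RSM25 (21 each), MRPL22 and MRPL50 (22 each), and IMG2 and MRP20 (23 each). Over the members, the median SD of the 12 strain means (each of 2 arrays) was 0.26 log2 units and the median SD of single arrays within a strain was 0.29. The steadiest was MRPL10, the counterpart of bacterial L15, whose strain means lay between 92.3 and 126 (SD 0.15 log2 units). The most variable was MRP4, the counterpart of bacterial S2, with strain means between 21.9 and 71.7 (SD 0.58).

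A test over the 12 strains called 9 members (13.2%), against 11.4% of all probe sets (limma moderated F test). They were RSM18, MRPL51, MRP2, MRPS16, RML2, MRPL13, MRPL40, MRP4 and MRP51, in order of falling F. Of these 9, 8 lie on chromosome XVI, V or VIII, and MRPL13 lies on chromosome XI. MRP4 is the one on chromosome VIII, which was higher as a whole in rpl14a (below). Its difference from WT was -0.07 in rpl14a and lowest in rpl22a (-1.39). Of the 748 differences of a member from WT, 9 were called, 7 higher and 2 lower, in 8 members. Of all probe sets, between 0.0216% (rpl22b) and 6.54% (rpl7a) were called in a deletion against WT.

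**Figure D1:**
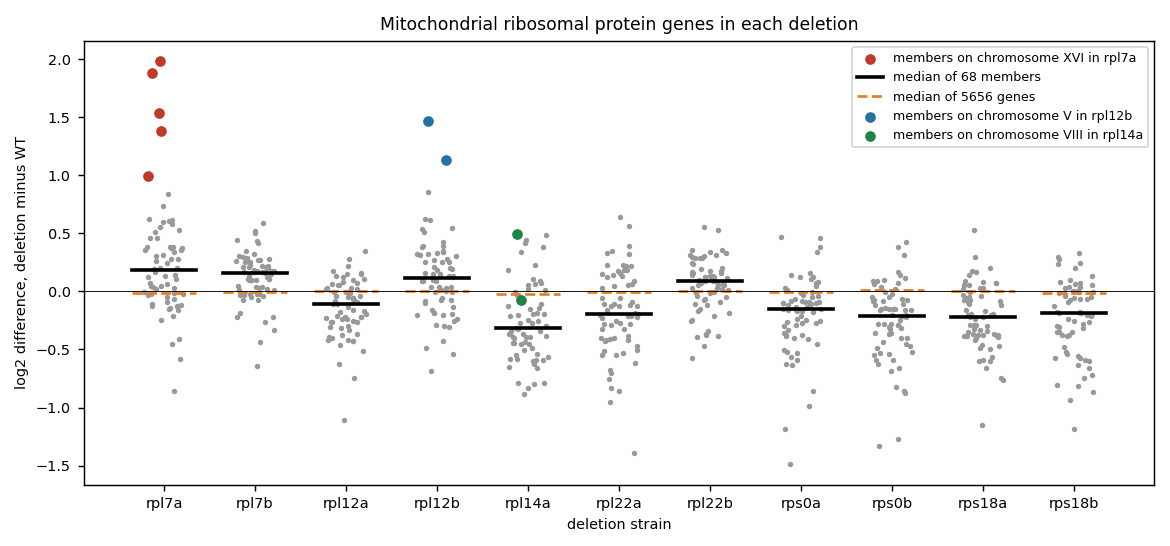
Log2 difference from WT (vertical axis) of each of the 68 members in each deletion strain (horizontal axis); grey and coloured points are members, black bars the members' median and dashed orange bars the median of 5656 genes. The 5 coloured points of rpl7a (chromosome XVI) and the 2 of rpl12b (chromosome V) stand above every other member of those strains.

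As a set the members moved little. Their median difference from WT was 0.19 in rpl7a, 0.15 in rpl7b, 0.11 in rpl12b and 0.09 in rpl22b. It was -0.11 in rpl12a, -0.32 in rpl14a and -0.19 in rpl22a. In the small-subunit deletions it was -0.15 in rps0a, -0.21 in rps0b, -0.22 in rps18a and -0.19 in rps18b. The median of all 5656 genes stayed between -0.03 and 0.01 in these 11 comparisons. All 11 share the same 2 WT arrays, whose member medians were 6.49 and 6.25 log2 units, a gap of 0.24 that was the widest between replicates of any strain (median gap 0.13). All of these medians but that of rpl14a were smaller than that gap, and single arrays moved them: without rpl22b replicate 1 the median in rpl22b was -0.11 and without WT replicate 2 it was -0.05, and without rpl12b replicate 1 that in rpl12b was -0.02. Left with WT replicate 2 alone as the reference the median in rpl7a was 0.34, and with WT replicate 1 alone it was 0.07. Without normalization the median became -0.01 in rpl12b and -0.11 in rpl22b, while that of all genes was -0.15 and -0.19 there. Over the 11 comparisons the median of all genes ran from -0.42 to 0.05 without normalization, and relative to it the members' median kept its sign in all 11, also with median centring.

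**Figure D2:**
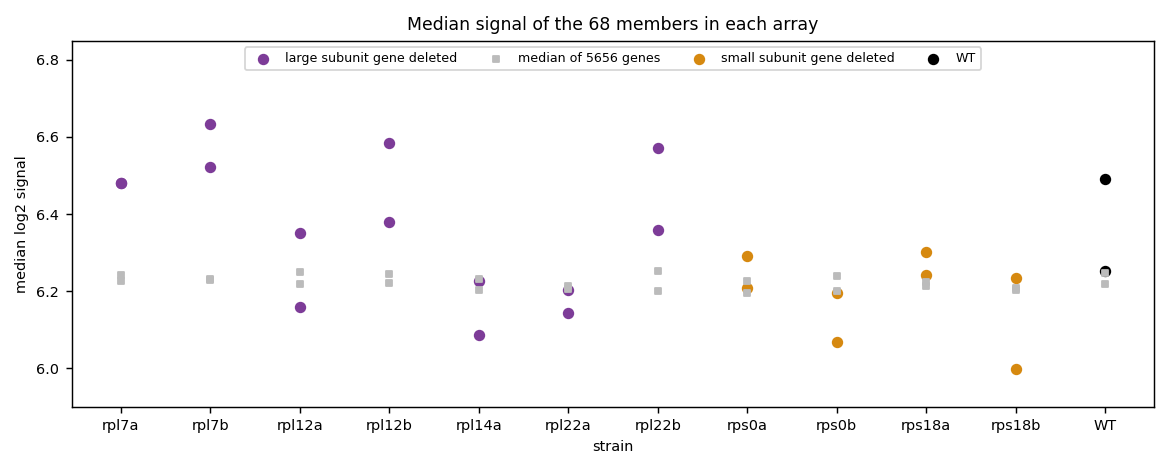
Median log2 signal of the 68 members in each of the 24 arrays (circles, vertical axis) by strain (horizontal axis), with the median of 5656 genes in the same array (grey squares). The WT arrays lie at 6.49 and 6.25, the 8 arrays of small-subunit deletions between 5.998 (rps18b) and 6.30 (rps18a), and those of rpl14a and rpl22a among them.

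Members whose 2 arrays did not overlap those of WT were counted in each strain, and the shares restate in part the medians just given. Both arrays were below both WT arrays for 37 members in rpl14a (54.4%, against 28.3% of all genes) and above them for 6 (8.82% against 23.2%). In rpl22a 23 members were below (33.8% against 26.4%) and 10 above (14.7% against 23%). In rpl12a 20 were below (29.4% against 19.2%) and 5 above (7.35% against 20.3%). Among the small-subunit deletions, rps0a had 14 below (20.6% against 22%) and 2 above (2.94% against 21%). In rps0b 29 were below (42.6% against 24.2%) and 2 above (2.94% against 26.3%). In rps18a 25 were below (36.8% against 22.9%) and 3 above (4.41% against 24%). In rps18b 25 were below (36.8% against 23.2%) and 1 above (1.47% against 22%). In rpl7a 28 were above (41.2% against 26.9%) and 7 below (10.3% against 26.6%). In rpl7b 18 were above (26.5% against 17.3%) and 1 below (1.47% against 18.4%). In rpl12b 18 were above (26.5% against 22.9%) and 6 below (8.82% against 21.8%). In rpl22b 7 were above (10.3% against 16%) and 7 below (10.3% against 15%).

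In rpl7a, 5 members rose and 0 fell, 7.35% of members, where 6.54% of all probe sets were called and 3.57% were called higher. At an unadjusted p under 0.05 stood 13 members, 19.1% against 19.6% of probe sets. Of the 5 members on chromosome XVI, 4 were called, and 1 of the 63 on other chromosomes was. Chromosome XVI as a whole was higher in this strain: its 434 genes had a median difference of 0.95 and 48.2% were called higher. The median of its 5 members was 1.54, and that of the 63 others 0.14.

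MRPS16 (YPL013C), the counterpart of the small-subunit protein S16, had signals of 608 and 439 in rpl7a against 105 and 163 in WT. Both rpl7a arrays were far above both WT arrays, a difference of 1.98 ± 0.27 (adjusted p = 0.000688, limma). It was the 7th highest of the 434 genes of its chromosome. MRPL51 (YPR100W), a large-subunit protein without a bacterial counterpart, had signals of 286 and 338 in rpl7a against 87.7 and 81.7 in WT. The difference was 1.88 ± 0.23 (adjusted p = 0.000406, limma), and here too the groups were far apart.

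MRPL40 (YPL173W), the counterpart of L24, an early assembly protein in bacteria, gave 224 and 193 in rpl7a against 90.3 and 57.0 in WT. It rose by 1.54 ± 0.30 (adjusted p = 0.00643, limma). MRP2 (YPR166C), the counterpart of S14, gave 522 and 558 in rpl7a against 207 and 207 in WT. The difference of 1.38 ± 0.23 (adjusted p = 0.00240, limma) was many times the gap between replicates of either strain. MRP51 (YPL118W), a small-subunit protein assigned no bacterial counterpart here, acts with the leaders of the COX2 and COX3 messages. It gave 92.0 and 82.5 in rpl7a against 48.2 and 40.0 in WT. Its arrays did not overlap and the difference was 0.99 ± 0.28, close to the median of its chromosome, but its adjusted p of 0.0500115 (limma) fell just outside the threshold. Of the 5 called genes in rpl7a, 3 passed without WT replicate 2 or without rpl7a replicate 1, when MRPL40 and MRPL20 were lost, and only MRPS16 and MRPL51 passed without normalization between arrays.

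In the 10 other deletions none of these 5 genes was called, the smallest adjusted p being 0.260 (limma). MRPS16 lay between -0.09 (rps0a) and 0.64 (rpl22a) there, MRPL51 between -0.11 (rps18a) and 0.53 (rpl12b), and MRPL40 between -0.38 (rps0a) and 0.53 (rpl22b). MRP2 lay between -0.63 (rps18b) and 0.13 (rpl7b), and MRP51 between -0.66 (rpl14a) and 0.30 (rpl7b).

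The one member called in rpl7a off chromosome XVI was MRPL20 (YKR085C), a large-subunit protein without a bacterial counterpart, on chromosome XI. It gave 152 and 178 in rpl7a against 107 and 78.7 in WT, a difference of 0.84 ± 0.22 (adjusted p = 0.0365, limma). That call was lost with any 1 of the 4 arrays left out (adjusted p between 0.0543 and 0.265, limma).

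**Figure D3:**
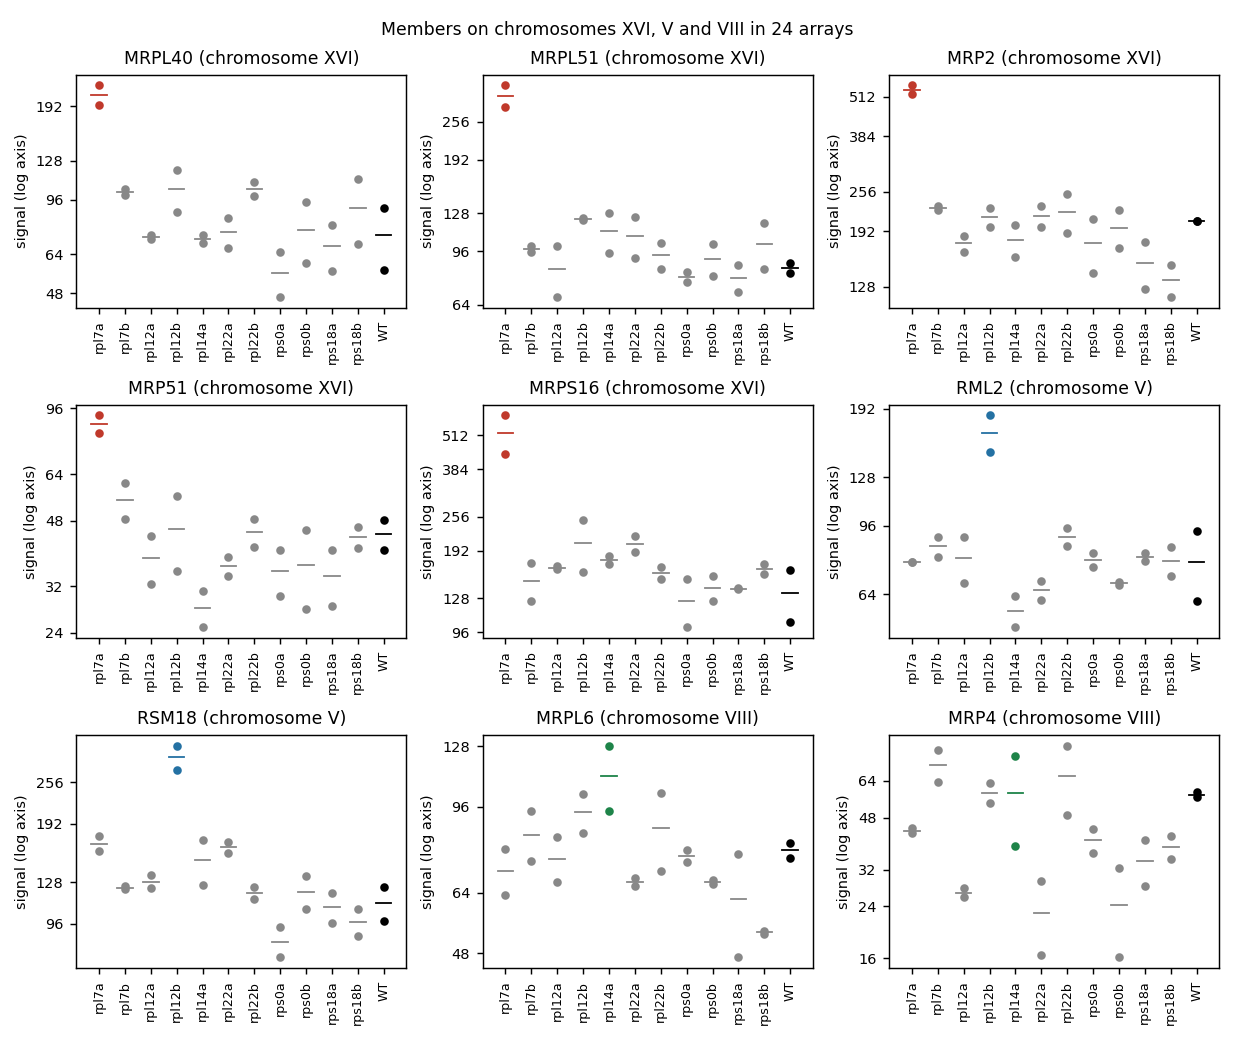
Signal (log axis) in the 24 arrays of the 5 members on chromosome XVI, the 2 on chromosome V and the 2 on chromosome VIII; points are arrays, lines the mean of a strain's 2 arrays, black is WT, and the coloured strain is rpl7a, rpl12b or rpl14a. The coloured points stand above all other arrays for the members on chromosomes XVI and V, but for MRP4 the rpl14a arrays span much of the range of the other strains.

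In rpl12b, 2 members rose and 0 fell, 2.94% of members against 2.1% of probe sets called and 1.5% called higher. Both were the members that lie on chromosome V, whose 253 genes had a median difference of 0.95, with 40.3% called higher. The 66 members elsewhere had a median of 0.10 and 0 calls (limma), and among all 68 members 6 had an unadjusted p under 0.05 (8.82% against 11.5% of probe sets). RSM18 (YER050C), the counterpart of S18, had signals of 330.0 and 278 in rpl12b against 124 and 97.8 in WT, a difference of 1.46 ± 0.19 (adjusted p = 0.00123, limma). RML2 (YEL050C), the counterpart of L2, a core protein of the peptidyl transferase region in bacteria, gave 185 and 149 in rpl12b against 93.1 and 61.6 in WT. It rose by 1.13 ± 0.19 (adjusted p = 0.00773, limma). RML2 no longer passed without WT replicate 2 (adjusted p = 0.0814) or without rpl12b replicate 1 (adjusted p = 0.0570, limma), and neither gene passed without normalization. In the other 10 deletions RSM18 lay between -0.39 and 0.60 and RML2 between -0.39 and 0.25, and neither was called.

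In rpl14a, 0 members rose and 1 fell, 1.47% of members, where 3.33% of probe sets were called and 1.44% were called lower. At an unadjusted p under 0.05 stood 6 members, 8.82% against 15.9% of probe sets. Chromosome VIII was higher in this strain, with a median of 0.79 over 257 genes and 33.9% called higher, yet neither of its 2 members passed the test. MRPL6 (YHR147C), the counterpart of L6, gave 128 and 94.2 in rpl14a against 80.9 and 75.4 in WT. Both rpl14a arrays were above both WT arrays, and the difference was 0.49 ± 0.24 (adjusted p = 0.340, limma). MRP4 (YHL004W) gave 77.7 and 38.4 in rpl14a against 58.5 and 56.4 in WT. Its replicates lay on either side of WT, and the difference was -0.07 ± 0.39 (adjusted p = 0.998, limma), the 241st of the 257 genes of the chromosome.

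The 66 members off chromosome VIII had a median of -0.33 in rpl14a, with 52 below 0, and 1 was called. This was MRPL13 (YKR006C), a large-subunit protein without a bacterial counterpart. It gave 106 and 108 in rpl14a against 179 and 157 in WT, and fell by 0.65 ± 0.16 (adjusted p = 0.0436, limma). The call was lost with any 1 of the 4 arrays left out (adjusted p between 0.0994 and 0.289, limma).

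The same gene was the only member called in rpl22a, 1.47% of members against 2.44% of probe sets called and 1.01% called lower. At an unadjusted p under 0.05 stood 9 members, 13.2% against 15.1% of probe sets. MRPL13 gave 88.3 and 100.4 in rpl22a against the 179 and 157 of WT, and fell by 0.83 ± 0.16 (adjusted p = 0.0155, limma). The rpl22a and rpl14a comparisons share their WT arrays. Without WT replicate 1 the adjusted p in rpl22a was 0.152, and without rpl22a replicate 1 it was 0.0735 (limma). MRP4 was lower still in rpl22a, with signals of 29.2 and 16.4 against 58.5 and 56.4 in WT, a difference of -1.39 ± 0.39 that did not pass (adjusted p = 0.0822, limma).

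In the 7 other deletions 0 members were called by limma. In rpl7b 1 member had an unadjusted p under 0.05, against 2.65% of probe sets, and 0.0323% of probe sets were called. In rpl12a it was 2 members, against 8.58% of probe sets, with 0.291% called. In rpl22b it was 0 members, against 4.26% of probe sets, with 0.0216% called. Among the small-subunit deletions rps0a had 6 such members, all lower, 8.82% against 11.8% of probe sets, with 0.28% called. There were 8 in rps0b, all lower, 11.8% against 16.1%, with 2.61% of probe sets called. There were 3 in rps18a, all lower, 4.41% against 12.5%, with 0.668% called. There were 9 in rps18b, all lower, 13.2% against 10.6%, with 0.323% called. The members with the lowest values were MRPL50 in rps0a (-1.49 ± 0.39, with 1 of the 2 arrays below background), MRP4 in rps0b (-1.33 ± 0.39) and MRPL31 in rps18a (-1.15 ± 0.42) and rps18b (-1.18 ± 0.42), none of which passed the test.

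The rps0a result rests on which array is used. Left with replicate 2 alone, the array with the highest background, the fit called 6 members in rps0a (8.82%, where 4.93% of all probe sets were called), and left with replicate 1 alone it called 0 (0.119%). Between rps0a and rps0b the count became 4 with rps0a replicate 2 alone (5.88% against 2.92%). In such a fit the lone array is assumed to vary as much as arrays of the other strains. The 6, named after their values were seen, were MRPL50, MRP20, RSM23, MRPL36 (-1.34) and MRP49 (-1.19), all lower, and RSM26 (1.03), higher. MRPL50, MRP20 and RSM23 lay below background in replicate 2 and above it in replicate 1, so they have no measured size there. MRPL36 was at 1.35 times background in replicate 2 and 18.8 times in replicate 1. MRP49 was at 2.38 and 26.3 times, and RSM26 at 6.17 and 16.2 times. MRPL50 shows the split: its deposited signals were 16.7 and 8.6 in the rps0a arrays, where background was 5.55 and 30.8. In that array 62 members were above background, the fewest of the 24. The part of background in these differences was not tested.

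The mean of the 11 deletions against WT also gave 0 called members (limma), with 0.41% of probe sets called and 2 members at an unadjusted p under 0.05, against 11.1% of probe sets. One of these was MRPS16 (0.45 ± 0.20, adjusted p = 0.413, limma), the member with the largest difference in rpl7a. The other was MRPL13 (-0.35 ± 0.12, adjusted p = 0.252, limma), which was lower than WT in 10 of the 11 deletions.

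**Figure D4:**
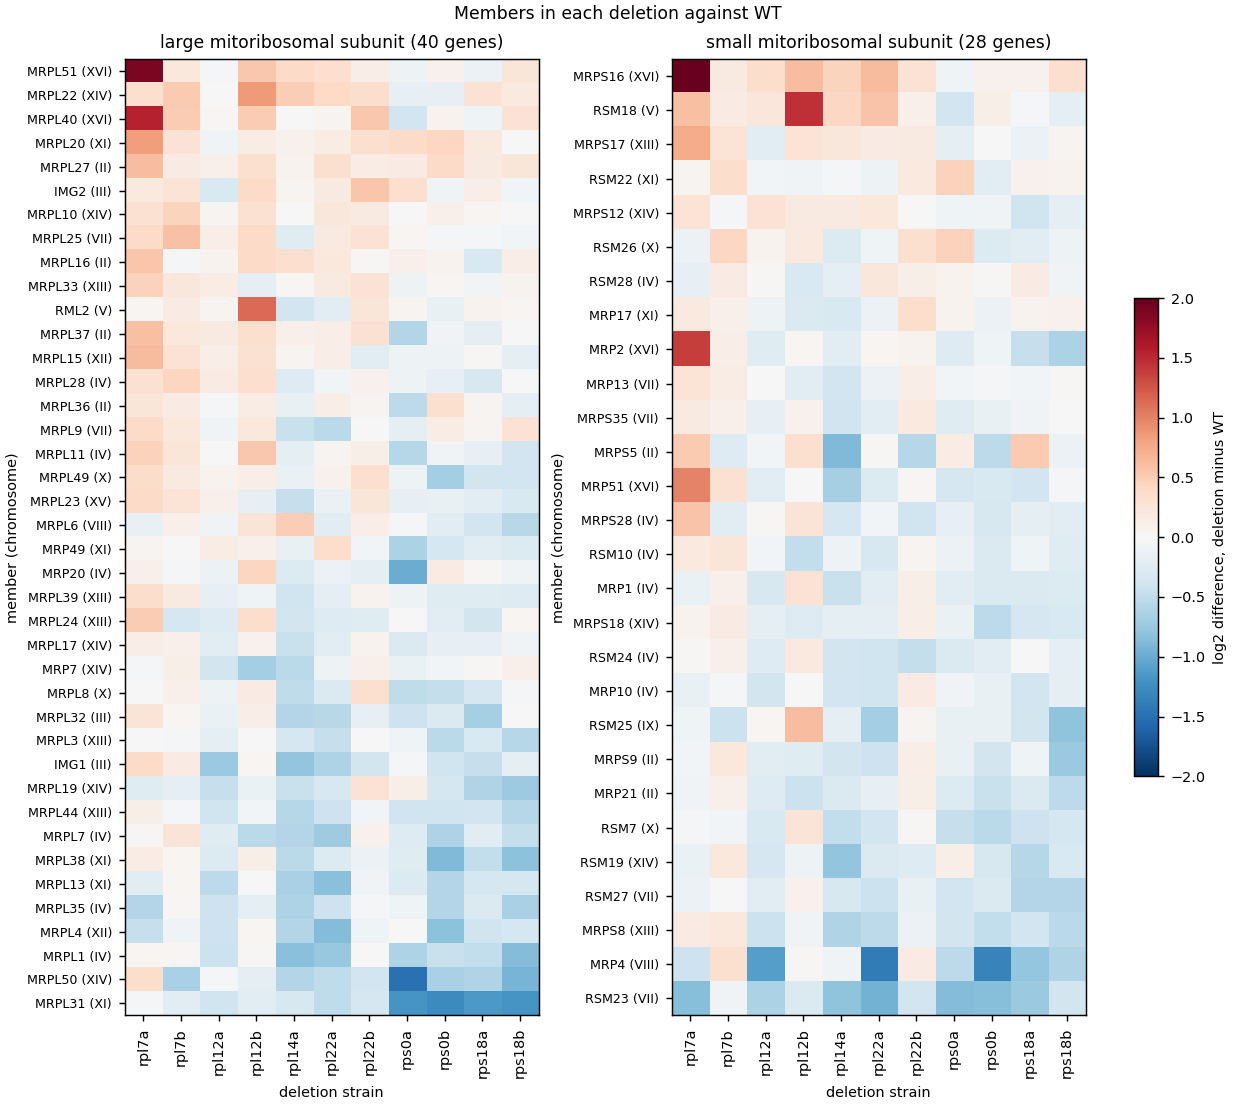
Log2 difference from WT of each member (rows, with its chromosome) in each deletion strain (columns), for the 40 large-subunit and 28 small-subunit proteins of the mitochondrial ribosome, sorted by the mean over strains; red is higher and blue lower than WT, on a linear colour scale. The darkest red cells are MRPS16, MRPL51 and MRPL40 in rpl7a and RSM18 in rpl12b, and the row of MRPL31 is bluest in the 4 small-subunit deletions.

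Paralogs were compared directly, without the WT arrays. Between rpl7a and rpl7b, 3 members were higher in rpl7a (4.41%), with 5.35% of probe sets called and 3% called higher; 11 members (16.2%) and 17.5% of probe sets had an unadjusted p under 0.05. They were MRPS16 (1.81 ± 0.27, adjusted p = 0.00131), MRPL51 (1.67 ± 0.23, adjusted p = 0.00105) and MRP2 (1.25 ± 0.23, adjusted p = 0.00561, limma), all on chromosome XVI. MRPS16 gave 126 and 172 in rpl7b, close to its WT values. MRPL40 gave 103.9 and 99.7 in rpl7b, and its difference of 1.03 ± 0.30 did not pass (adjusted p = 0.0619, limma). MRP2 did not pass without rpl7b replicate 1 (adjusted p = 0.0558, limma).

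Between rpl12a and rpl12b, 2 members were lower in rpl12a (2.94% of members; 1.65% of probe sets were called, 1.1% lower), and 8 (11.8%) had an unadjusted p under 0.05, against 11.8% of probe sets. RSM18 gave 134 and 123 in rpl12a against 330.0 and 278 in rpl12b, a difference of -1.24 ± 0.19 (adjusted p = 0.00502, limma). RML2 gave 89.8 and 68.6 in rpl12a against 185 and 149 in rpl12b, a difference of -1.08 ± 0.19 (adjusted p = 0.0103, limma). These are the members on chromosome V. Without rpl12a replicate 2 neither passed (adjusted p = 0.0549 for RSM18 and 0.124 for RML2, limma), and RML2 did not pass without rpl12b replicate 1 (adjusted p = 0.0723, limma).

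Between rpl22a and rpl22b, 2 members were lower in rpl22a (2.94%; 2.82% of probe sets were called, 1.09% lower), and 11 (16.2%) had an unadjusted p under 0.05, against 16% of probe sets. Neither of the 2 lies on a chromosome that was shifted in these strains. MRPL13 gave 88.3 and 100.4 in rpl22a against 186 and 137 in rpl22b, a difference of -0.76 ± 0.16 (adjusted p = 0.0234, limma). MRP4 gave 29.2 and 16.4 in rpl22a against 84.4 and 48.9 in rpl22b, a difference of -1.55 ± 0.39 (adjusted p = 0.0487, limma). The MRP4 difference was -1.14 without rpl22a replicate 2, -1.16 without rpl22b replicate 1 and -1.95 without rpl22b replicate 2, and passed in none of these. MRPL13 did not pass without rpl22a replicate 1, rpl22a replicate 2 or rpl22b replicate 1 (adjusted p between 0.0664 and 0.136, limma). Between rps0a and rps0b (0.0863% of probe sets called) and between rps18a and rps18b (0.0108%), 0 members were called by limma, with 6 members at an unadjusted p under 0.05 between the rps0 strains (8.42% of probe sets) and 2 between the rps18 strains (4.79%).

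The 7 deletions of large cytosolic subunit genes were then set against the 4 of small-subunit genes, on strain means and with WT left out of the fit. Each strain counted as an independent unit, which paralogs are not. The small-subunit strains are only the rps0 and rps18 pairs, and all large-subunit strains but rpl14a are paralog pairs too. The p-values of this comparison do not allow for that. Of the 68 members, 60 were higher in the large-subunit deletions (51.4% of all genes were), with a median difference of 0.20 against 0.01 for all genes. By mitoribosomal subunit, 36 of 40 large-subunit members (median 0.21) and 24 of 28 small-subunit members (median 0.20) were higher. Members with a bacterial counterpart had a median of 0.22 and those without one 0.14. Under the test 2 members were called higher and 0 lower (2.94% of members against 3.32% of probe sets called, 1.09% higher), and 15 members had an unadjusted p under 0.05 (22.1% against 17.3%). The strains overlapped: by the median of the members' strain means, rpl14a, at 69.2 signal units, and rpl22a, at 70.9, ranked among the small-subunit deletions, which lay between 67.97 (rps0b) and 77.2 (rps0a), while rpl7b was highest at 93.3.

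MRPL31 (YKL138C), a large-subunit protein without a bacterial counterpart, differed most. Its geometric strain means lay between 52.2 and 73.0 in the 7 large-subunit deletions, with a median of 59.6, and between 30.7 and 33.4 in the 4 small-subunit deletions, with a median of 32.6. The strain means did not overlap, and the difference was 0.91 ± 0.09 (adjusted p = 0.00115, limma on strain means). Single arrays did overlap, between 39.7 and 87.7 (median 64.1) in the large-subunit deletions and between 23.04 and 48.3 (median 30.8) in the small-subunit deletions. The SD of single arrays of MRPL31 within a strain was 0.44 log2 units. The small-subunit strain means lay much closer together than their single arrays, so the standard error of 0.09 and its p may be too small. The F test over the 12 strains, which uses the spread between replicates, did not call MRPL31 (adjusted p = 0.167, limma). In WT it gave 86.4 and 63.6, and no small-subunit deletion passed against WT on its own (the differences ran from -1.15 to -1.27). The difference between the deletion classes passed with each of the 11 strains left out in turn, at 0.87 to 0.95.

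MRPL49 (YJL096W), the counterpart of L21, was the other. Its strain means lay between 149 and 211 in the large-subunit deletions, with a median of 179, and between 102 and 152 in the small-subunit deletions, with a median of 126. The ranges touch, since rps0a at 152 exceeded rpl14a at 149. The difference was 0.54 ± 0.12 (adjusted p = 0.0415, limma on strain means), and it passed in only 2 of the 11 fits with 1 strain left out, those without rpl14a and without rps0a. Without rps0a replicate 2 it was 0.47 and did not pass (adjusted p = 0.124, limma).

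**Figure D5:**
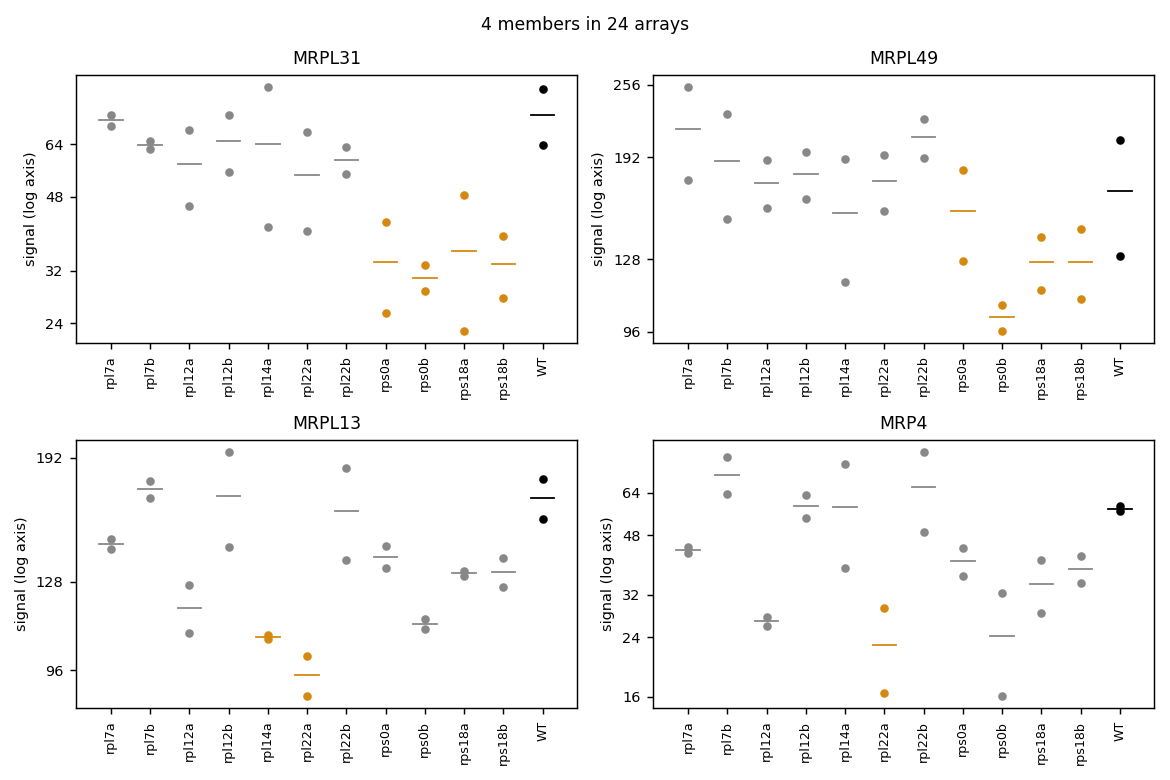
Signal (log axis) of MRPL31, MRPL49, MRPL13 and MRP4 in the 24 arrays; points are arrays and lines the mean of a strain's 2 arrays, black is WT, and orange marks the small-subunit deletions (MRPL31, MRPL49), rpl14a and rpl22a (MRPL13) or rpl22a (MRP4). MRPL31 is lowest in the 4 small-subunit deletions, and MRPL13 is lowest in rpl22a.

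Other genes of mitochondrial translation were taken from lists chosen by function. Of 12 further mitoribosomal protein genes with other names, 1 was called in any deletion against WT: RTC6, on chromosome XVI, rose by 1.15 ± 0.24 in rpl7a (adjusted p = 0.00988, limma). Of all probe sets, 6.54% were called in rpl7a. RTC6 was also 0.95 ± 0.24 higher in rpl7a than in rpl7b (adjusted p = 0.0320, limma), where 5.35% of probe sets were called. The median difference of these 12 genes was 0.17 in rpl7a, 0.07 in rpl7b, -0.13 in rpl12a, 0.00207 in rpl12b, -0.34 in rpl14a, -0.24 in rpl22a and 0.08 in rpl22b. In the small-subunit deletions it was -0.27 in rps0a, -0.37 in rps0b, -0.29 in rps18a and -0.25 in rps18b. Between the deletion classes their median was 0.30, against 0.20 for the members. MNP1, the counterpart of bacterial L7/L12, was 0.47 ± 0.11 higher in the large-subunit deletions (adjusted p = 0.0390, limma). Of all probe sets, 3.32% were called between the classes, 1.09% higher.

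Of 42 genes for mitochondrial translation factors, aminoacyl-tRNA synthetases, assembly factors and message-specific activators, 2 rose in rpl7a and 1 fell in rps0b. Of all probe sets, 6.54% were called in rpl7a and 2.61% in rps0b. MSD1 and MSY1, the mitochondrial aspartyl- and tyrosyl-tRNA synthetases, lie on chromosome XVI and rose by 1.34 ± 0.29 (adjusted p = 0.0121) and 1.31 ± 0.31 (adjusted p = 0.0205, limma) in rpl7a. MAM33, a mitochondrial matrix protein linked to translation, fell by 1.09 ± 0.26 in rps0b (adjusted p = 0.0433, limma), and its difference between rpl22a and rpl22b was -1.29 ± 0.26 (adjusted p = 0.0165, limma). OXA1, which inserts proteins into the inner membrane and lies on chromosome V, differed by -1.42 ± 0.31 between rpl12a and rpl12b (adjusted p = 0.0354, limma). MSD1 was also 1.27 ± 0.29 higher in rpl7a than in rpl7b (adjusted p = 0.0203, limma). Between paralogs, 5.35% of all probe sets were called for rpl7, 1.65% for rpl12 and 2.82% for rpl22. The list's median was -0.43 in both rpl14a and rpl22a. The 73 cytosolic ribosomal protein genes had medians between -0.10 and 0.09 in the 11 deletions. In the comparison of deletion classes their median was -0.07, against 0.20 for the mitochondrial ones. The cytosolic genes' median log2 signal lay between 12.2 and 12.5 in the arrays, and that of all genes between 6.20 and 6.25. Whether differences are measured equally well at so high a signal was not tested.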

How the data were processed

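One Affymetrix yeast array (YG-S98 design) was used per sample, 24 in all. The intensity values are those the authors deposited in one table of 9335 probe sets; the summary of probes and the scaling are not stated in the files or labels. Per the labels, RNA was extracted with hot phenol and copied from an oligo-dT primer, which favours 3' ends. Probe sets were named through the platform annotation: 6504 had 1 gene, 328 several and 2443 none. After 60 control probe sets were set aside, values under the 10th percentile (3.6) were raised to it, logged to base 2 and quantile normalized. Group means of the 12 strains were fitted with limma 3.58.1 (R 4.3.3) on all 9275 probe sets. The 7 large- and 4 small-subunit deletions were compared on strain means. The fit was tested on simulated data: with 2 arrays a strain (rpl7a against WT, 9275 probe sets) it recovered 14% of 1.5-fold, 50% of 2-fold, 96% of 4-fold and 100% of 8-fold changes. The changes were placed only in probe sets brighter than the median, with independent normal noise, so recovery in dim members was not tested.

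Members, lists and comparisons were chosen with earlier results of these data known. Named genes were the members on chromosomes XVI, V and VIII where rpl7a, rpl12b and rpl14a are described, up to 5 higher and 5 lower called members per comparison, the 8 with the highest F, the steadiest member, those near background, and any called member where 5 or fewer were called. Chromosomes were read from locus tags. MRPL44 had a second probe set, dimmer and not used. Alternatives were other normalizations, floors and filters, a replicate block, and arrays or strains left out. No sequences are shown.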

Additional observations from a re-analysis of the deposited data

Results flagged for a closer look

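In 9 results a member differed between paralogous deletions or between the deletion classes by a test of the difference itself (limma). A strain far from the others was looked for among the strain means of the 7 large-subunit and the 4 small-subunit deletions, for MRPL31, MRPL49 and the members' median, and none was found. Arrays of 1 strain are too few for that rule. MRPS16 (1.81), MRPL51 (1.67) and MRP2 (1.25) were higher in rpl7a than in rpl7b. RSM18 (-1.24) and RML2 (-1.08) were lower in rpl12a than in rpl12b. MRP4 (-1.55) and MRPL13 (-0.76) were lower in rpl22a than in rpl22b. MRPL31 (0.91) and MRPL49 (0.54) were higher in the large-subunit than in the small-subunit deletions. The first 5 lie on the chromosome whose genes were raised as a whole in rpl7a or rpl12b, and MRPL13, MRPL31 and MRPL49 lie on none of the 3 raised chromosomes. MRP4 lies on chromosome VIII, which was raised in rpl14a, a strain outside that comparison.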

How the results depend on the processing

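Among the 21 results for named members, no difference changed sign in 153 alternative values; 126 kept their side of the threshold, 24 lost it and 3 gained it. With 1 array or strain left out, 34 of 100 values lost the threshold, and MRP4 in rpl14a, never called, became 0.44 without rpl14a replicate 2. The share of all probe sets called in the same fit was counted only for rps0a arrays left out (above) and for the replicate block. In the other settings a change in members cannot be told apart from a change over all probe sets. No normalization left 2 calls in rpl7a, 0 in rpl12b, rpl14a and rpl22a, 0 between rpl12a and rpl12b and between rpl22a and rpl22b, and 1 in the F test. Median centring gave 0 calls in rpl14a, 0 between the rpl22 paralogs and 4 between the deletion classes. A floor at the 25th percentile gave 2 in rpl14a, and log2(value + 1) gave 0 in rpl14a, 1 between the rpl22 paralogs and 1 between the deletion classes. The trend and robust setting gave 0 in rpl14a. Without the probe sets of chromosomes XVI, V and VIII, 59 members remained, by construction, with 1 call in rpl7a, 0 in rpl12b, 0 in rpl14a, 0 between the rpl7 and 0 between the rpl12 paralogs, 1 between the rpl22 paralogs and 1 in the F test. Leaving out 1 array gave 3 to 5 calls in rpl7a, 1 to 2 in rpl12b, 0 in rpl14a, 0 to 1 in rpl22a, 0 to 6 in rps0a, 0 to 2 between the rpl12 and between the rpl22 paralogs, and 0 to 4 between the rps0 paralogs. Leaving out 1 strain, or rps0a replicate 2, gave 1 to 2 calls between the deletion classes (chosen after seeing the data), and leaving out rpl7a, rpl12b and rpl14a gave 1. The replicate numbers were not taken to pair the cultures in the main fit. Over 66 pairs of strains, deviations of same-numbered arrays correlated at -0.01 to 0.19 (median 0.06), with 19 over 0.1. By these deviations 24 of 24 arrays correlated best with one of their own number. With 2 arrays a strain the deviations mirror each other, so that count restates the correlations and is no separate hint. Yet the member median was higher in replicate 1 in 10 of 12 strains, a hint from the data and not the design. Against the same-numbered WT array the member median was above in both replicates of 3 deletions, below in both of 7, and -0.01 and 0.23 in rpl7a. With the replicate block, 2 members were called in rpl22a (2.94%, against 4.02% of probe sets) and 1 in rps0b (1.47% against 4.51%). The F test then called 15 (22.1% against 17.1%). In the main fit 2.44% of probe sets were called in rpl22a, 2.61% in rps0b and 11.4% in the F test. Apart from arrays left out and settings shown to change the number of probe sets, the cause was not tested. Members near background, above all MRPS5, limit what small changes could be seen.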

Other observations

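VAR1, the one mitoribosomal protein encoded in yeast mitochondrial DNA, was above background in 1 of the 24 arrays, and the label protocol primed the RNA from oligo-dT. The unused second probe set of MRPL44 had a median signal of 19.7, against 103 for the one used, and neither was called in any deletion against WT.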
